A study of Mus musculus with 4 samples.

Results

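Oligodendrocyte precursor-like nuclei, here called OPC-like nuclei, were 280 of the 13270 nuclei kept from a single-nucleus RNA data set of mouse medial prefrontal cortex. They were chosen by the expression of 4 genes. Pdgfra codes for a receptor for platelet-derived growth factor, Cspg4 for the NG2 proteoglycan, Vcan for the proteoglycan versican and Olig1 for a transcription factor of the lineage. A nucleus was kept with at least 500 genes, at least 800 unique molecular identifiers (UMIs, counted transcripts) and at most 5% of its UMIs in mitochondrial genes. Its score was the mean over the 4 genes of log1p of its UMIs scaled to 10000 per nucleus. The 280 highest scores among the 474 kept nuclei with at least 2 of the 4 genes made up the set, and the other 12990 kept nuclei served as the comparison.

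The study asked about neurons that respond to DOI, a psychedelic, and the labels describe 4 samples. DOI was injected in 2 of them and saline in the other 2, and each group held a female and a male sample. Whether a sample was 1 mouse or a pool is not given in the sources used here. The mice were C57BL/6J, 9 weeks old, and the cortex was taken 24 hours after the injection. All 4, the saline samples included, expressed scFLARE2, by which calcium in the presence of light releases a transcription factor, together with TRE-mCherry-p2a-bReaChES, a reporter of that factor that also encodes an opsin; what drives scFLARE2 is not given in the sources used here. The barcodes came as 1 pooled matrix whose endings, 1 to 4, separate libraries but are not tied to a sample, so no value here compares DOI with saline.

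Oligodendrocyte precursors are the main dividing glia of the adult brain. They respond to platelet-derived growth factor, carry proteoglycans on their surface, receive synaptic contacts from neurons and give rise, through a short-lived committed stage marked by Gpr17, Bmp4 and Enpp6, to oligodendrocytes that make myelin. They persist throughout the cortex and are known to express ion channels and transmitter receptors.

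The 22402 barcodes held 157575088 UMIs, and 9132 were removed by the limits above. OPC-like nuclei were shallower than the rest, with a median of 4055.5 UMIs and 2101 genes per nucleus, against 9099.5 UMIs and 3370 genes in all other nuclei. Mitochondrial UMIs made up a median of 2.37% in OPC-like nuclei and 1.52% in the others. Among the other nuclei, 8647 resembled excitatory neurons by the marker list with the highest score, 1261 inhibitory neurons, 1031 mature oligodendrocytes, 546 microglia, 360 astrocytes and 98 committed precursors. A further 86 scored highest for the 4 rule genes and stayed in the comparison, and 709 took no type. Among kept nuclei 18 barcode sequences occurred in more than 1 library; 1 belonged to an OPC-like nucleus, and no 2 OPC-like nuclei shared one.

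OPC-like nuclei numbered 84, 74, 56 and 66 in libraries 1 to 4. They were 1.95% of the kept nuclei in library 1 (exact binomial 95% interval 1.56 to 2.41), 2.08% in library 2 (1.64 to 2.61), 3.51% in library 3 (2.66 to 4.53) and 1.73% in library 4 (1.34 to 2.19). The interval of library 3 lay above those of the other libraries. Library 3 also had the lowest median mitochondrial share among its OPC-like nuclei, 1.40%, and library 4 the highest, 3.28%. All limits together removed 1418 of 5721 barcodes in library 1, 1724 of 5278 in library 2, 1480 of 3076 in library 3 and 4510 of 8327 in library 4. The part of the mitochondrial limit in the difference was not tested. All intervals here cover counting error only, not differences between mice or between nuclei.

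The levels of the 4 rule genes describe how the set was chosen. Pdgfra had 1001, 999, 1200.5 and 937 CPM (the UMIs of each class added up and scaled to the same total) in OPC-like nuclei of libraries 1 to 4, against 3.49, 4.29, 3.26 and 4.44 CPM in all other nuclei. Vcan had 1069.5, 1054, 1314 and 1274 CPM in OPC-like nuclei, against 15.8, 13.5, 10.4 and 11.6 CPM in the others. Cspg4 averaged 315 CPM and Olig1 58.4 CPM over OPC-like nuclei, against 1.65 and 5.24 CPM in the others. Pdgfra and Vcan were found in 98.2% and 97.5% of OPC-like nuclei, Cspg4 in 71.8% and Olig1 in 21.8%. All 4 genes were seen together in 36 of the 280 nuclei, 3 in 178 and 2 in 66.

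The score had no gap where the set ended. The last OPC-like nucleus scored 1.136 and the next nucleus 1.129, with 31 OPC-like nuclei and 38 eligible others within 0.1 of that limit. The 30 nuclei just inside it had Lhfpl3 in 100% and Sox10 in 66.7% of nuclei, and the 30 just outside had Lhfpl3 in 96.7% and Sox10 in 73.3%. Of the 194 eligible nuclei outside the set, the first 100 by score carried Lhfpl3 at 5371 CPM. The remaining 94 carried it at 919 CPM and were deeper, with a median of 10426 UMIs. The plot of score against UMIs shows both groups.

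**Figure D1:**
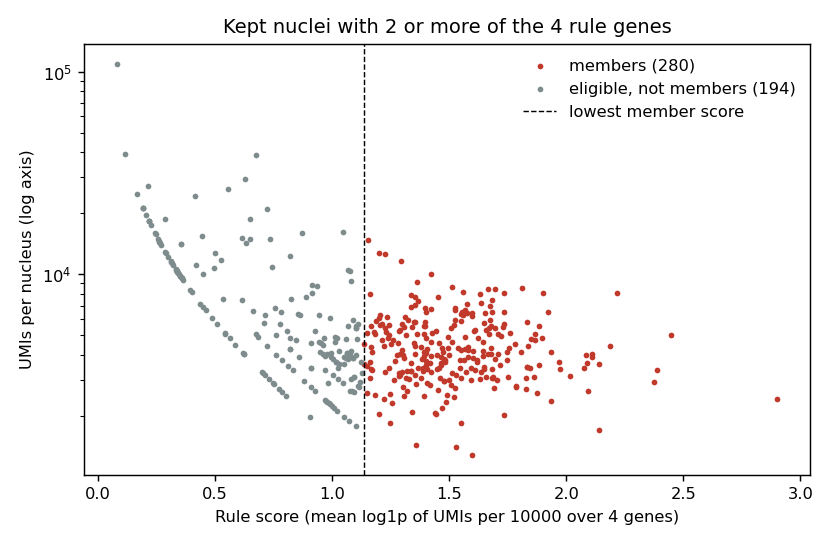
Rule score (x axis) against UMIs per nucleus (y axis, log scale) for the 474 kept nuclei with at least 2 of the 4 rule genes; OPC-like nuclei are red, the other 194 grey, and the dashed line is the lowest score in the set, 1.136. Points run without a gap across the line, and the grey nuclei at low scores reach far higher UMI counts.

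Genes outside the rule were compared by size. A gene entered where its UMIs in OPC-like nuclei plus those expected there at the rate of the other nuclei came to at least 20, which treats both directions alike. It was called higher or lower where the ratio of CPM was at least 2 or at most 0.5 with the same sign in all 4 libraries. A gene scarce in the other nuclei could enter only through its UMIs in OPC-like nuclei. No test was made, because nuclei are not replicates. Of 10898 genes entered, 1490 (13.7%) were called higher in OPC-like nuclei and 1185 (10.9%) lower, and the median log2 ratio of all entered genes was 0.22. The same rule was applied against 3 like classes. Against mature oligodendrocyte-like nuclei 12.8% of entered genes were called higher and 10.4% lower. Against committed precursor-like nuclei these shares were 12.2% and 6.63%, and against astrocyte-like nuclei 12.2% and 11.3%. Every count of called genes in a list below is to be read beside the shares of its comparison.

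Genes known for oligodendrocyte precursors were higher than in the pool of all other nuclei. All 18 of 18 genes in the list of precursor identity were called higher, against 13.7% of all entered genes, with a median log2 ratio of 3.61. The sialidase gene Neu4 had a log2 ratio of 6.18 (95% interval 5.88 to 6.49), the matrilin gene Matn4 5.83, the matrix gene Emid1 5.81 and C1ql1, which codes for a secreted C1q-like protein, 5.46. Neu4 had 114, 81.3, 148 and 146 CPM in OPC-like nuclei, against 1.94, 1.01, 1.80 and 1.95 CPM in all other nuclei. No library of the other nuclei came near any library of OPC-like nuclei, but committed precursor-like nuclei, pooled with those others, were at 223 CPM, beside 122 CPM in OPC-like nuclei.

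Lhfpl3, a membrane protein gene named here after its values were seen, was found in nearly every nucleus of the set. It had 5353, 7298, 8308 and 5979 CPM in OPC-like nuclei, against 209, 224, 166 and 188 CPM in all other nuclei, and it was present in 99.6% of OPC-like nuclei. Libraries 2 and 3 were the highest and library 1 the lowest, and the groups did not overlap. Ptprz1, a receptor phosphatase gene, had 2649.8, 3046, 3096 and 2567 CPM in OPC-like nuclei, against 84.5, 103, 82.8 and 82.8 CPM in the others. None of the 18 genes of this list had a part in the choice of nuclei. The list itself was drawn up with earlier results of these data known, so its count is a description only. Some were also high in astrocyte-like nuclei. Luzp2 was called lower in OPC-like nuclei in that comparison, at 1761 CPM in OPC-like and 6223 CPM in astrocyte-like nuclei. Ptprz1 was at 2815 CPM in OPC-like and 1916 CPM in astrocyte-like nuclei, and Cspg5 at 489 and 468 CPM, with no call. Of the 18, 15 were called higher and 1 lower than in astrocyte-like nuclei.

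Vascular markers were near 0, and those of other cells were present at low levels. The 4 endothelial markers summed to 5.52 CPM, the 4 pericyte markers to 3.16 CPM and the 4 vascular fibroblast markers to 3.95 CPM in OPC-like nuclei. Cldn5, Cdh5, Kcnj8 and Slc6a13 had 0 UMIs there. The 4 excitatory markers summed to 268 CPM in OPC-like nuclei, against 1190 CPM in excitatory neuron-like nuclei and 451 CPM in microglia-like nuclei. Slc17a7, the vesicular glutamate transporter gene of excitatory neurons, had a UMI in 44.3% of OPC-like nuclei at a median depth of 4055.5 UMIs, and in 42.3% of microglia-like nuclei at 2482 UMIs. The share in OPC-like nuclei was thus close to that in the shallower microglia-like nuclei, and the source of these UMIs was not tested.

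The summed microglial and astrocyte markers were above their levels in the pool of all other nuclei. The 4 microglial markers summed to 178 CPM in OPC-like nuclei, against 123 CPM in all other nuclei, 63.4 CPM in mature oligodendrocyte-like, 88.4 CPM in committed precursor-like and 91.9 CPM in astrocyte-like nuclei, and 2818 CPM in microglia-like nuclei. None of these 4 was called against all other nuclei, and P2ry12, a purine receptor gene of microglia, made up 111 of the 178 CPM. The 4 astrocyte markers summed to 86.0 CPM in OPC-like nuclei, against 33.4 CPM in all other nuclei, 44.5 CPM in mature, 74.3 CPM in committed, 73.4 CPM in microglia-like and 1225 CPM in astrocyte-like nuclei. Aqp4, a water channel gene of astrocytes, was called higher than in all other nuclei, with a log2 ratio of 3.09, and than in mature nuclei, with 2.32; the other astrocyte markers were called in neither comparison.

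Some OPC-like nuclei carried more than 1 foreign marker. At least 2 of the 4 excitatory markers were found in 56 of 280, of which 28 were in library 4. Microglial markers passed this count in 17, inhibitory in 10 and astrocyte markers in 7. In all, 86 OPC-like nuclei held at least 2 markers of some type outside the oligodendrocyte lineage. Without them, 1214 genes were called higher and 1059 lower, and 1082 and 926 of these were among those called with all 280. A doublet score above 0.25 was reached by 4 OPC-like nuclei.

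Beyond the lists, the leading gene was Rlbp1, which codes for a retinaldehyde-binding protein. Rlbp1 had 122, 127, 106 and 96.7 CPM in OPC-like nuclei, against 1.21, 1.70, 0.617 and 0.916 CPM in all other nuclei, a log2 ratio of 6.61 (95% interval 6.27 to 6.95). It was also low in every like class, with 5.31 CPM in committed precursor-like, 1.13 CPM in mature oligodendrocyte-like and 11.1 CPM in astrocyte-like nuclei. Calcrl, a receptor for peptides of the calcitonin family, had 182, 260.3, 289 and 232 CPM in OPC-like nuclei, against 2.36, 3.36, 2.30 and 2.50 CPM in the others. Library 1 was the lowest of OPC-like nuclei, and the groups lay far apart.

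The next genes in order of ratio were Afap1l2, an adaptor of Src signalling, with a log2 ratio of 6.15, Rnf43, an E3 ligase that restrains Wnt receptors, with 5.63, the kinase gene Stk32a with 5.60 and Rgcc, a cell cycle regulator, with 5.44. Rnf43 and Adam12 overlap another annotated gene on the same strand, so their reads could be shared with it. Tafa4, Plpp4, Tes, Prkcq, Adam12 and Plce1 followed, from 5.43 for Tafa4 to 5.14 for Adam12, with Plce1 just after. Prkcq, a protein kinase C gene, was at 280.1 CPM in OPC-like and 371 CPM in committed precursor-like nuclei. Plce1, a phospholipase C gene, had 353 UMIs in OPC-like nuclei and was at 199 CPM in astrocyte-like nuclei.

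The 250 bases before the annotated start of the 3 genes with the largest ratios outside the lists and rule genes are shown because they lead that ranking. They were read 5′ to 3′ in the direction of the gene from RefSeq windows on GRCm38.p6, and capitals mark a searched motif. In Rlbp1 it lies on the opposite strand and reads as its reverse complement, in Calcrl on the gene's own strand, and Afap1l2 had none. Rlbp1 lies at chr7:79387028-79387277, Calcrl at chr2:84425267-84425516 and Afap1l2 at chr19:57008576-57008825, all on the minus strand.
Rlbp1: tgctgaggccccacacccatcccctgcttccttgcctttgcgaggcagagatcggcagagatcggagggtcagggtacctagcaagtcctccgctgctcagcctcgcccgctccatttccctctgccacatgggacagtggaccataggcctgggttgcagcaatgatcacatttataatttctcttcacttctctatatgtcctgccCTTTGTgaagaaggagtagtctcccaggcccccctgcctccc
Calcrl: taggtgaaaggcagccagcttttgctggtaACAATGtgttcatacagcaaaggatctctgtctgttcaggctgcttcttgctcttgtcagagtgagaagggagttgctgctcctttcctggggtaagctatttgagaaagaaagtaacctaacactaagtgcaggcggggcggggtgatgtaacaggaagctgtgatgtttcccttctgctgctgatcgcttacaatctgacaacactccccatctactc
Afap1l2: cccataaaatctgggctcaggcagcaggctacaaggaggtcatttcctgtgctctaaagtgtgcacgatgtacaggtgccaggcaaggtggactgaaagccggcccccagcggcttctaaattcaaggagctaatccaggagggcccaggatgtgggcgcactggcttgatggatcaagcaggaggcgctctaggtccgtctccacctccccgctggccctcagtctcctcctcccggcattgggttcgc
The motifs searched were CAGCTG, an E-box of the kind bound by Olig2, and ACAAAG and ACAATG, which are Sox motifs; both strands were read. In 30 windows of 26 of the 34 higher genes looked up, CAGCTG was present in 6 of the 30, against 13.0% of all 32851 windows. ACAAAG was present in 16.7% of those windows, against 16.5% of all, and ACAATG in 3.33%, against 10.7%. These shares are descriptions, and a motif is not shown to be a binding site.

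**Figure D2:**
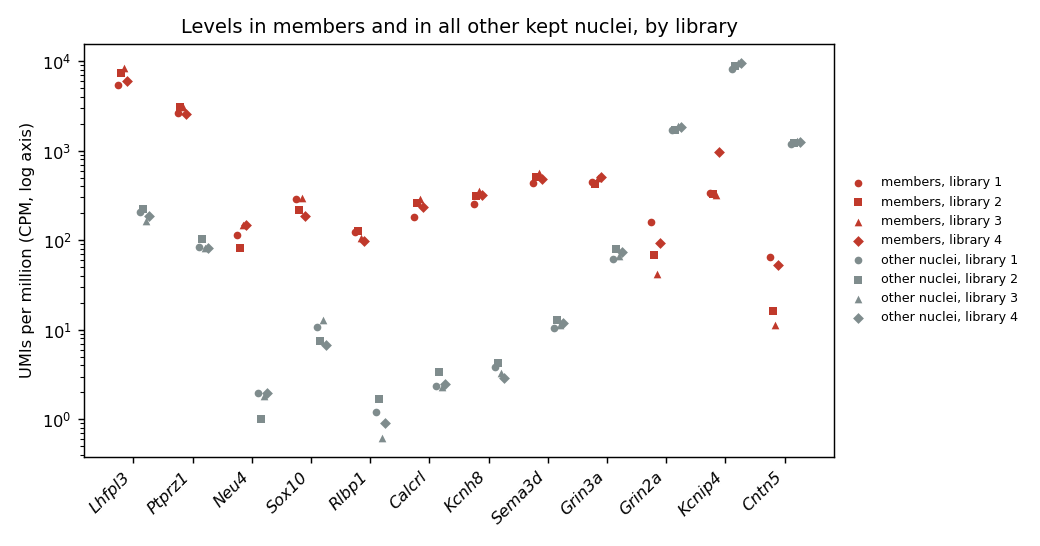
CPM (log axis) for 12 genes in each of the 4 libraries, with OPC-like nuclei (members) in red at the left of each pair and all other kept nuclei in grey at the right; marker shapes stand for libraries. The 9 genes from Lhfpl3 to Grin3a are higher in every library of OPC-like nuclei, and Grin2a, Kcnip4 and Cntn5 are lower in every one.

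Genes lower in OPC-like nuclei were led by genes of neurons, which made up most of the other nuclei. Cntn5, a neuronal contactin, had 65.7, 16.3, 11.4 and 52.5 CPM in OPC-like nuclei, against 1190.5, 1216, 1278 and 1239.6 CPM in the others, a log2 ratio of -4.99 (95% interval -5.42 to -4.58). Il1rapl2, Epha6, Cntnap5c, Cntnap5a and Zfp385b had log2 ratios from -5.42 to -4.80. Epha6, an ephrin receptor gene, was at 19.7 CPM in OPC-like nuclei and at 23.4 CPM in astrocyte-like nuclei, against 798 CPM in excitatory neuron-like nuclei.

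Transcription factors of the oligodendrocyte lineage were mostly higher. Of 25 in the list 22 entered, 14 were called higher and 0 lower, with a median log2 ratio of 1.67. Olig2, Zfp488, Sox10 and Nkx2-2, which act in specification or differentiation of the lineage, had log2 ratios of 4.92, 4.86, 4.78 and 4.75. Sox10 had 289.8, 218, 293 and 185 CPM in OPC-like nuclei, against 10.7, 7.56, 12.7 and 6.71 CPM in all other nuclei. Libraries 1 and 3 were highest in both groups, and the groups did not overlap. The remaining genes had too few UMIs to enter.

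The same factors also differed between OPC-like nuclei and later stages. Against mature oligodendrocyte-like nuclei 7 were called higher, among them Zeb1, Sox6, Sox5 and the Notch target Hes5, and 5 lower, namely St18, Nkx6-2, Myrf, Prox1 and Zeb2. Myrf, the factor that switches on myelin genes, stood at 17.4 CPM in OPC-like nuclei, against 134 CPM in mature oligodendrocyte-like nuclei. Against committed precursor-like nuclei Hes5 was higher, at 48.9 CPM in OPC-like nuclei with 0 UMIs in committed nuclei, and Nkx2-2 and Zfp488 were lower. Sox10 stood at 243 CPM in OPC-like nuclei, 338 CPM in committed and 184 CPM in mature nuclei, with no call in either comparison. In astrocyte-like nuclei Sox10 was at 0.617 CPM.

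Genes of the committed stage were partly present. Of 12 listed, 9 entered, 6 were called higher and 2 lower than in all other nuclei. Gpr17, a receptor that marks the committed stage, had 95 UMIs in OPC-like nuclei and was found in 27.1% of them. Sirt2 and Fyn completed the higher side, and Rras2 was called lower with a log2 ratio of -1.05. Itpr2, Bcas1 and Tns3 had log2 ratios of 4.51, 3.59 and 3.39, while Bmp4 and Enpp6 had 5 and 6 UMIs in all 280 nuclei. At least 2 of Gpr17, Bmp4, Enpp6 and Bcas1 were seen in 57 OPC-like nuclei, spread over libraries 1 to 4 as 14, 18, 11 and 14.

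Frmd4a, a scaffold gene of the same list, went the other way. Frmd4a had 176, 335, 68.4 and 216 CPM in OPC-like nuclei, against 1086, 1123, 1142 and 1159.9 CPM in all other nuclei. Library 3 was the lowest and library 2 the highest among OPC-like nuclei, and none came near the others. In committed precursor-like nuclei Frmd4a stood at 16256 CPM, so that the log2 ratio of OPC-like to committed nuclei was -6.32 (95% interval -6.50 to -6.14). It overlaps several annotated genes on the same strand. With a mitochondrial limit of 1% the rule took all 64 eligible nuclei, of which 29 were among the 280 and the rest were below the lowest score of the 280, and the log2 ratio to all other nuclei was 0.15.

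Myelin genes were near the level of all other nuclei pooled, a mix of neurons, mature oligodendrocyte-like nuclei and other classes. Of 16 listed, 14 entered, 1 was called higher and 0 lower than in all other nuclei, with a median log2 ratio of 0.36. That gene was Ugt8a, an enzyme of myelin galactolipid synthesis, with 140.4, 143, 156 and 88.4 CPM in OPC-like nuclei, against 24.2, 21.8, 35.1 and 17.8 CPM in the others. Library 4 was lowest in both groups, and the groups did not overlap. The 4 mature markers Mog, Mag, Mobp and Mal summed to 113 CPM, and at least 2 of them were found in 14 OPC-like nuclei. All 16 genes were called lower than in mature oligodendrocyte-like nuclei, with a median log2 ratio of -3.91, but these 4 had been used to choose that class. Against committed precursor-like nuclei 8 of 15 entered genes were called lower and 0 higher. Over all entered genes, 10.4% were called lower than in mature and 6.63% than in committed nuclei.

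Genes of cell division were among those called higher. Of 16 genes of G2 and mitosis 9 entered and 6 were called higher. Of 20 genes of S phase 8 entered and 2, Tyms and Mcm7, were called higher. The share over all entered genes was 13.7%. All 6 called genes of G2 and mitosis, and Tyms and Mcm7, entered only through their UMIs in OPC-like nuclei. Hmmr, for example, had 21 UMIs there and 0.582 CPM in all other nuclei, and Mki67 had 44 UMIs and 9.31 CPM. These counts were thus conditioned on the nuclei in which the genes were high, and are a description only. Top2a, the topoisomerase of dividing cells, had 128, 22.8, 22.8 and 129.9 CPM in OPC-like nuclei, against 3.91, 3.27, 4.32 and 1.01 CPM in all other nuclei. Libraries 1 and 4 were well above libraries 2 and 3 among OPC-like nuclei, and the groups did not overlap. These levels were not those of most OPC-like nuclei. Of the 103 Top2a UMIs, 100 lay in the 16 nuclei with at least 2 of the G2 and mitosis genes, Top2a being one of these. Such nuclei numbered 8, 1, 3 and 4 in libraries 1 to 4. Hmmr, Kif4 and Kif11, which act on the mitotic spindle, had log2 ratios of 4.83, 4.12 and 3.81.

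At least 2 of the 16 genes of G2 and mitosis were found in 16 OPC-like nuclei, 8, 1, 3 and 4 in libraries 1 to 4. They were 5.71% of the set (95% interval 3.30 to 9.11), against 4.13% of all other nuclei, 2.93% of microglia-like and 0 of 98 committed precursor-like nuclei. After each nucleus was thinned to 800 UMIs the share was 3.57% of OPC-like nuclei and 0.300% of the others. Of the 16 nuclei, 13 had at least 5 of the genes. Their median depth was 6265.5 UMIs, against 4024 UMIs in the other OPC-like nuclei.

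Without library 1, which held 8 of the 16 nuclei, 3 genes of G2 and mitosis were called higher. The count was 2 without the nuclei that held foreign markers, and 0 after thinning. At least 2 S-phase genes were found in 41 OPC-like nuclei, 11 of which were among the 16. Gpr17 was found in 5 of the 16 and in 76 OPC-like nuclei in all. The plot of G2 and mitosis genes per nucleus shows the few nuclei that stood apart.

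**Figure D3:**
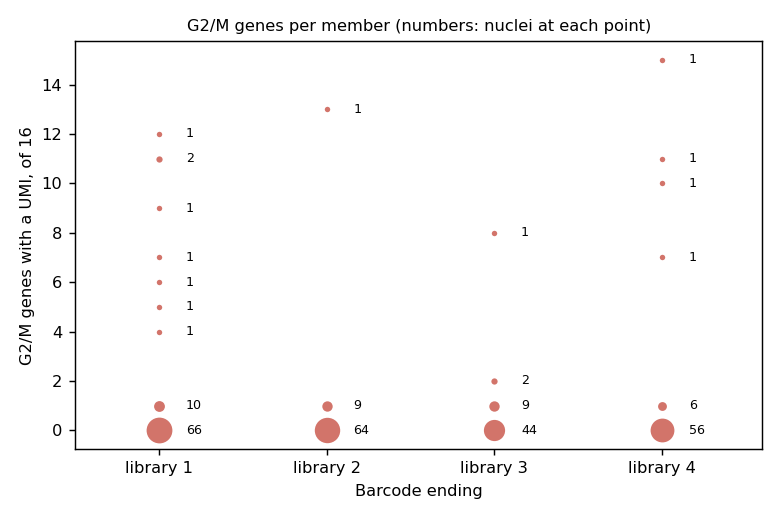
Number of the 16 G2 and mitosis genes with at least 1 UMI (y axis) in each of the 280 OPC-like nuclei, by library (x axis); the number beside a point is how many nuclei lie there and point area follows it. Most nuclei lie at 0, and 8 nuclei of library 1 lie at 4 genes or more, against fewer in each other library; the highest point, at 15 genes, is in library 4.

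Genes of growth factor and Notch signalling were called higher in 9 of 19 entered cases and lower in 4, of 28 listed. Ednrb, an endothelin receptor, had a log2 ratio of 4.40, the Notch ligand Dll1 4.37, the receptor Notch1 3.94 and the orphan receptor Gpr37l1 3.03. Notch1 had 38.8, 48.8, 41.8 and 80.1 CPM in OPC-like nuclei, against 3.82, 4.05, 3.48 and 2.79 CPM in all other nuclei. Library 4 was highest among OPC-like nuclei and lowest among the others, and the groups did not overlap. Dll1 was at 18.1 CPM in OPC-like nuclei, from 23 UMIs, and had 0 UMIs in committed precursor-like and astrocyte-like nuclei.

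Notch1 and Ednrb were at 53.7 and 76.5 CPM in OPC-like nuclei, beside 67.9 and 61.1 CPM in astrocyte-like nuclei, with no call in either direction. Egfr, the epidermal growth factor receptor gene, had 5 UMIs in OPC-like nuclei, a level of 3.95 CPM, against 445 CPM in astrocyte-like nuclei. Its log2 ratio to all other nuclei was -2.34, but 1.83 in the 64 nuclei taken under the 1% limit. Bmpr1b, a bone morphogenetic protein receptor, and Lingo1, a negative regulator of oligodendrocyte differentiation, had log2 ratios of -1.74 and -1.35, and Rtn4r was the fourth gene called lower.

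Glutamate receptors divided by subunit. Of 17 ionotropic genes 16 entered, 2 were called higher and 4 lower, with a median log2 ratio of -0.14, where 13.7% and 10.9% of all entered genes were called. Grin3a, an NMDA receptor subunit that lowers calcium flow, had 448, 419.8, 490.1 and 508 CPM in OPC-like nuclei, against 61.8, 79.7, 66.6 and 72.9 CPM in all other nuclei, a log2 ratio of 2.72 (95% interval 2.60 to 2.84). The 4 libraries of OPC-like nuclei lay close together, and the groups did not overlap. Grin3a was also high in inhibitory neuron-like nuclei, at 313 CPM; it overlaps Ppp3r2 on the same strand.

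The NMDA subunit Grin2a had 158, 68.3, 41.8 and 93.9 CPM in OPC-like nuclei, against 1685, 1687, 1878 and 1829 CPM in all other nuclei, a log2 ratio of -4.23 (95% interval -4.50 to -3.97). Library 1 was the highest and library 3 the lowest of OPC-like nuclei, and neither approached the others. Grin2b and the AMPA subunit Gria1 had log2 ratios of -3.59 and -2.97, and Grin1 was the fourth gene called lower. Grin2a had a UMI in 24.6% of OPC-like nuclei and in 27.8% of microglia-like nuclei, which were shallower, and the source of these UMIs was not tested.

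Against other glia the picture differed by class. OPC-like nuclei had 10 of 16 entered ionotropic genes called higher than in mature oligodendrocyte-like nuclei and 8 of 17 called higher than in astrocyte-like nuclei. Over all entered genes, 12.8% were called higher than in mature and 12.2% than in astrocyte-like nuclei. The kainate receptor subunits Grik1, Grik3 and Grik4 and the AMPA subunits Gria3 and Gria4 were called higher in both comparisons. Grik1 was at 371 CPM in OPC-like nuclei, 37.1 CPM in committed, 146 CPM in mature and 41.3 CPM in astrocyte-like nuclei. Gria4 was at 761 CPM in OPC-like and 670.4 CPM in committed nuclei, beside 253 CPM in mature and 39.5 CPM in astrocyte-like nuclei. These 5 genes were singled out after their values were seen. Against committed precursor-like nuclei 4 of 16 entered ionotropic genes were called higher and 1, Grik2, lower, with a median log2 ratio of 0.16. Over all entered genes these shares were 12.2% and 6.63%. The 17 listed genes summed to 10189 CPM in OPC-like and 10541 CPM in committed nuclei.

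Metabotropic glutamate receptors were lower than in the other nuclei in 5 of 6 entered cases. Grm8 and Grm7 had log2 ratios of -3.82 and -2.15, and Grm3 and Grm5 were also called lower. Grm7 stayed at 452 CPM in OPC-like nuclei, where astrocyte-like nuclei had 101 CPM. Grm5, which couples to calcium release, was called higher in OPC-like nuclei than in each of the 3 like glial classes, at 951 CPM beside 294 CPM in committed, 366 CPM in mature and 249 CPM in astrocyte-like nuclei.

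GABA receptors were lower than in all other nuclei, most of which were neurons, in 10 of 14 entered cases and higher in 1. That one was Gabrg1, a gamma subunit of the GABA-A receptor, with 44.8, 78.1, 64.6 and 38.7 CPM in OPC-like nuclei, against 6.24, 7.32, 6.12 and 5.29 CPM in all other nuclei. Library 2 was highest in both groups, and the groups did not overlap. Gabrg1 was also at 79.6 CPM in astrocyte-like nuclei, but at 5.35 CPM in mature and 10.6 CPM in committed nuclei. Gabra5, Gabbr2 and Gabrg3 were the lowest by ratio to all other nuclei, with log2 ratios of -2.42, -2.03 and -1.95. In that comparison 13.7% of all entered genes were called higher and 10.9% lower. Against mature nuclei 3 of 14 GABA receptor genes were called higher and 0 lower. Against committed nuclei 3 of 13, Gabrg3 among them, were called higher and 0 lower. Against astrocyte-like nuclei 3 of 14 were called higher and 5 lower.

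Serotonin receptors, the known targets of DOI among them, were scarce. Of 14 genes 5 entered, and Htr2c, Htr1f, Htr2a and Htr4 were called lower. Htr2a, the receptor through which DOI is known to act, was at 8.68 CPM in OPC-like nuclei, from 11 UMIs, against 38.4, 41.7, 39.7 and 44.8 CPM in all other nuclei of libraries 1 to 4. Library 4 had most of those UMIs, and it stayed below every library of the others. Htr2a was found in 3.21% of OPC-like nuclei, 4.95% of microglia-like, 4.44% of astrocyte-like and 26.3% of excitatory neuron-like nuclei. The share in OPC-like nuclei was thus no higher than in microglia-like or astrocyte-like nuclei. Depth differed, with medians of 2482 UMIs in microglia-like and 11039 UMIs in excitatory neuron-like nuclei, and the source of the UMIs was not tested.

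Htr2c, with 6 UMIs, was at 4.73 CPM in OPC-like nuclei, against 63.7 CPM in the others; in the 64 nuclei taken under the 1% limit its log2 ratio was 0.33. Htr1f was at 48.1 CPM in OPC-like nuclei, 47.0 CPM in mature oligodendrocyte-like and 19.7 CPM in astrocyte-like nuclei, against 299.8 CPM in excitatory neuron-like nuclei. It was the only serotonin receptor called higher than in astrocyte-like nuclei. Htr2b was at 37.9 CPM in OPC-like nuclei and between 39.7 and 49.5 CPM in the other classes described here; it overlaps Psmd1 on the opposite strand.

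Among 14 entered receptors of other transmitters 1 was called higher and 7 lower. P2rx7, an ATP-gated channel, had 77.7, 84.6, 68.4 and 96.7 CPM in OPC-like nuclei, against 5.20, 7.35, 9.93 and 5.20 CPM in all other nuclei. The groups did not overlap, and libraries 3 and 4 had the lowest and highest levels among OPC-like nuclei. P2rx7 was higher still in microglia-like nuclei, at 143 CPM. The opioid receptor Oprm1 and the muscarinic receptor Chrm3 had log2 ratios of -4.28 and -3.83. Oprd1 had 0 UMIs in OPC-like nuclei, where 3 UMIs are the limit a count of 0 allows, and was thus at least 3.34 log2 units lower. P2ry12 was at 111 CPM in OPC-like nuclei and 18.6 CPM in mature nuclei, and overlaps Med12l on the opposite strand.

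**Figure D4:**
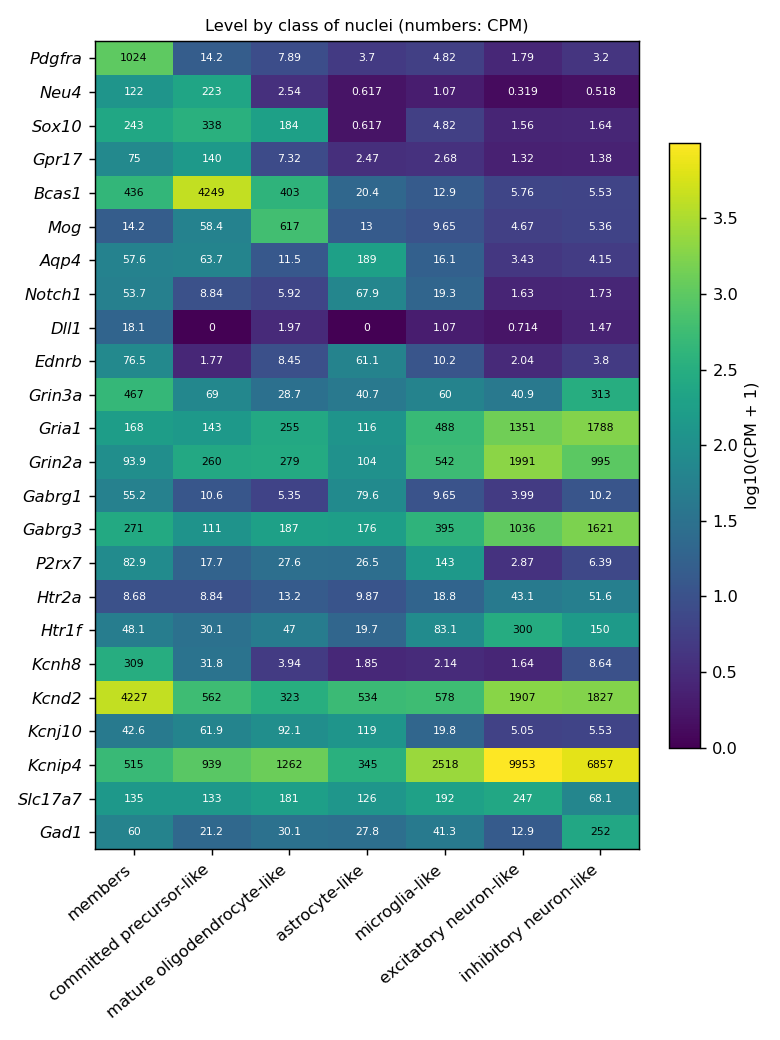
CPM of 24 genes (rows) in OPC-like nuclei (members, left column) and in 6 other classes of nuclei, with the level printed and coloured on a log10 scale. Pdgfra was used to choose OPC-like nuclei, and Gpr17, Bcas1, Mog, Aqp4, Slc17a7 and Gad1 to choose other classes; Kcnh8 and Kcnd2 are highest in the left column, while Grin2a, Gabrg3 and Kcnip4 are highest in neurons.

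Ion channels gave some of the largest differences in both directions. Of 28 genes, all of which entered, 5 were called higher and 9 lower, with a median log2 ratio of -0.71. Over all entered genes these shares were 13.7% and 10.9%. Kcnh8, a voltage-gated potassium channel of the Elk family, had 257, 309, 353 and 323 CPM in OPC-like nuclei, against 3.79, 4.23, 3.31 and 2.91 CPM in all other nuclei, a log2 ratio of 6.44 (95% interval 6.25 to 6.64). Library 3 was the highest and library 1 the lowest of OPC-like nuclei. Kcnh8 was also far lower in the like classes, at 31.8 CPM in committed, 3.94 CPM in mature and 1.85 CPM in astrocyte-like nuclei.

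Inward rectifiers of glia were higher as well. Kcnj16 and Kcnj10 had log2 ratios of 4.06 and 2.12, yet Kcnj10 was lower than in mature and astrocyte-like nuclei, at 42.6 CPM in OPC-like beside 92.1 and 119 CPM there. Kcnd2, a channel of A-type potassium current, had 4164, 4588, 4718 and 3619.6 CPM in OPC-like nuclei, against 1824, 1856, 1884 and 1868 CPM in the others, and Kcnk2 was the fifth gene called higher. Kcnd2 was at 562 CPM in committed and 323 CPM in mature nuclei, so its log2 ratio to the mature class was 3.71 (95% interval 3.62 to 3.80).

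Kcnip4, a partner of such channels in neurons, had 341, 325, 323 and 975 CPM in OPC-like nuclei, against 8141, 8754, 9455 and 9598 CPM in all other nuclei. Library 4 stood well above the other libraries of OPC-like nuclei. It also held 28 of the 56 nuclei with at least 2 excitatory markers, and their part in this was not tested. Kcnq5 and the calcium channel gene Cacna1b had log2 ratios of -2.30 and -2.25. Against the glial classes more channels were called higher than lower: 11 of 28 were called higher and 3 lower than in mature, 12 and 1 than in committed, and 17 and 1 than in astrocyte-like nuclei. The lower genes were Kcna1, Kcnip4 and Kcnj10 against mature, Kcnq3 against committed and Kcnj10 against astrocyte-like nuclei. Of all entered genes, 12.8% were called higher and 10.4% lower than in mature nuclei. These shares were 12.2% and 6.63% against committed, and 12.2% and 11.3% against astrocyte-like nuclei.

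The sodium channel gene Scn3a and the calcium channel gene Cacna1c were called higher than in each of the 3 glial classes. Scn3a was at 164 CPM in OPC-like nuclei, 49.5 CPM in committed, 36.3 CPM in mature and 17.3 CPM in astrocyte-like nuclei. Cacna1c was at 507 CPM in OPC-like nuclei, 219 CPM in committed, 192 CPM in mature and 63.5 CPM in astrocyte-like nuclei. Both were singled out after their values were seen, and neither was called against all other nuclei.

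Matrix and proteoglycan genes other than the rule genes Cspg4 and Vcan were called higher in 9 of 13 entered cases and lower in 1, with a median log2 ratio of 2.50. Over all entered genes 13.7% were called higher and 10.9% lower. Than in astrocyte-like nuclei, 7 of 15 were called higher and 3 lower, with a median of 0.90. Against committed nuclei 7 of 14 were called higher and 3 lower, with a median of 1.33, and against mature nuclei 11 of 14 and 1. Shares over all entered genes were 12.2% and 11.3% for astrocyte-like, 12.2% and 6.63% for committed, and 12.8% and 10.4% for mature nuclei. Ptprz1 and Tnr stand in this list and in that of precursor identity. Mmp15, a membrane-bound metalloproteinase, and Bcan, the gene of brevican, had log2 ratios to all other nuclei of 4.26 and 4.04. Bcan was called in neither direction against committed or astrocyte-like nuclei. Acan, the gene of the proteoglycan aggrecan, had a log2 ratio of 4.54 from 23 UMIs. Tnr, the gene of tenascin-R, was at 4235 CPM in OPC-like nuclei and higher in committed nuclei, at 9104 CPM, against 152 CPM in mature nuclei. The gene called lower than in all other nuclei was the protease gene Adamts17, with a log2 ratio of -1.81 that was 0.01 in the 64 nuclei taken under the 1% limit. Adamts17 was called higher than in astrocyte-like nuclei.

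Most genes of synaptic adhesion were not called against the other nuclei, most of which were neurons. Of 22 genes, all entered, 6 were called higher and 2 lower, where 13.7% and 10.9% of all entered genes were called. Nrxn2, a presynaptic neurexin, had 627, 579, 699 and 611 CPM in OPC-like nuclei, against 159, 161, 172 and 165 CPM in the others, and the groups did not overlap. The neuroligin Nlgn3, Dscaml1 and Lrrc4c had log2 ratios of 1.41, 1.32 and 1.26. Cntnap2, a neurexin-like gene of neurons, and Sdk2 had log2 ratios of -3.87 and -2.03. Against mature oligodendrocyte-like nuclei 15 of the 22 were called higher and 0 lower, beside 12.8% and 10.4% of all entered genes. Against committed nuclei 8 were called higher and 3 lower, with a median log2 ratio of 0.08, beside 12.2% and 6.63%. Against astrocyte-like nuclei 13 were called higher and 2 lower, beside 12.2% and 11.3%.

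Axon guidance genes were called higher in 8 of 25 entered cases and lower in 11. Sema3d, a secreted semaphorin, had 436, 504, 558 and 484 CPM in OPC-like nuclei, against 10.5, 12.9, 11.4 and 11.9 CPM in all other nuclei, a log2 ratio of 5.39 (95% interval 5.26 to 5.53). The libraries of OPC-like nuclei lay close together and far above all others. Ntn1, the gene of netrin-1, which overlaps another gene on the same strand, was at 155 CPM in OPC-like nuclei, and between 1.85 CPM in astrocyte-like and 9.24 CPM in inhibitory neuron-like nuclei in the other classes described here. Sema3d was high in committed nuclei too, at 324 CPM. Plxnb3, a plexin of the lineage, had 61.6 CPM in OPC-like nuclei, less than the 306 CPM of committed nuclei. Slit3, Efna5 and Unc5d, genes of guidance ligands and a netrin receptor, had log2 ratios of -4.96, -3.95 and -3.64.

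Immediate early genes, which mark recent activity, were called higher in 1 and lower in 3 of 15 entered cases. Jun was at 35.8, 35.8, 15.2 and 33.2 CPM in OPC-like nuclei, against 12.7, 11.5, 7.74 and 10.9 CPM in all other nuclei. Library 3 was lowest in both groups, and the groups did not overlap. Npas4, Nr4a1 and Nr4a3 had log2 ratios of -1.73, -1.18 and -1.14; that of Npas4 was 0.31 in the 64 nuclei taken under the 1% limit. No gene of this list was called in either direction against mature oligodendrocyte-like nuclei.

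Glucocorticoid-response genes were mostly not called against all other nuclei, and mostly called lower than in mature oligodendrocyte-like nuclei. Sgk1, a kinase induced by corticosteroids, and Errfi1 were called higher than in all other nuclei, with log2 ratios of 1.37 and 1.06, out of 10 entered. Against mature nuclei 0 of 13 were called higher and 8 lower, in a comparison in which 10.4% of all entered genes were called lower. Against committed nuclei 4 of 11 were called higher, Fkbp5 among them, and 0 lower, where 12.2% of all entered genes were called higher. Against astrocyte-like nuclei 2 of 13 were called higher and 7 lower, beside 12.2% and 11.3% of all entered genes. Fkbp5, a regulator of the glucocorticoid receptor, was at 124 CPM in OPC-like nuclei, against 249 CPM in mature nuclei. Tsc22d3, a direct glucocorticoid target, was at 9.47 CPM in OPC-like nuclei, against 212 CPM in mature and 144 CPM in astrocyte-like nuclei.

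**Figure D5:**
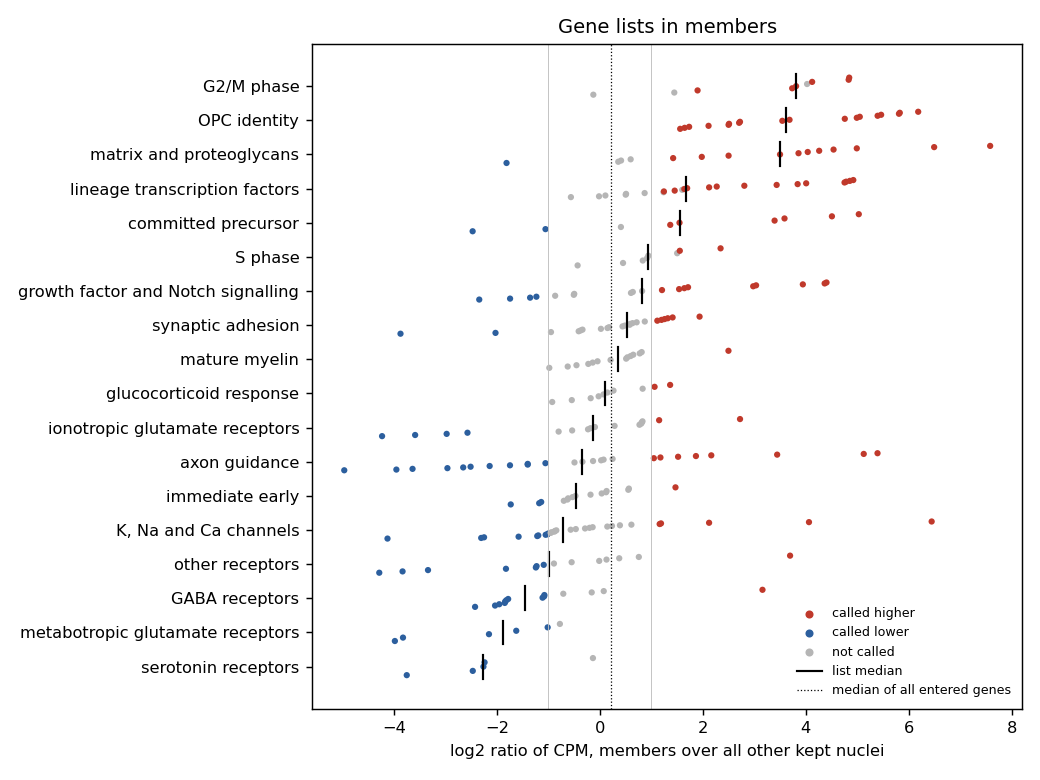
Log2 ratio of CPM in OPC-like nuclei (members) over all other kept nuclei for each entered gene (points) of 18 gene lists (rows), with the list median as a black bar and the median of all entered genes, 0.22, as a dotted line; red points were called higher and blue points lower. Precursor identity, G2/M and matrix lists have the highest medians, and serotonin and metabotropic glutamate receptors the lowest; the matrix row includes the rule genes Cspg4 and Vcan.

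The reporter was scarce in OPC-like nuclei and elsewhere. TREmcherry had 0, 26.0, 3.80 and 24.9 CPM in OPC-like nuclei, against 5.20, 14.5, 3.48 and 19.1 CPM in all other nuclei, and a UMI in 6.07% of OPC-like and 8.76% of all other nuclei. Libraries 2 and 4 were high and libraries 1 and 3 low in both groups. The share in microglia-like nuclei was 6.23%. tTA, the factor that drives TRE, had 5 UMIs in OPC-like nuclei, 3.95 CPM, against 4.03 CPM in the others.

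Committed precursors are the next stage of the lineage, and against committed precursor-like nuclei OPC-like nuclei had 1316 of 10792 entered genes (12.2%) called higher and 716 (6.63%) lower. Of the 18 identity genes 12 were called higher and 1, Tnr, lower. Among genes outside the lists Etv4, an ETS factor that responds to growth factor signalling, was at 107 CPM in OPC-like nuclei, from 135 UMIs, against 1.77 CPM in committed nuclei, from 1 UMI, a log2 ratio of 5.91 (95% interval 3.41 to 11.23). Prkg2, Ebf1, Sncaip, Nhsl1 and Unc13c followed. Unc13c, a regulator of vesicle release, was at 568 CPM in OPC-like and 21.2 CPM in committed nuclei, a log2 ratio of 4.74 (95% interval 3.93 to 5.70).

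Parvb, which codes for beta-parvin of cell adhesions, was lower in OPC-like nuclei, at 3.16 CPM, against 394 CPM in committed nuclei, a log2 ratio of -6.97 (95% interval -8.85 to -5.59). Eya2, Prom1, Kif19a and Cdk18 had between 1 and 4 UMIs in OPC-like nuclei. Neat1, a long noncoding RNA of nuclear paraspeckles, was at 11.8 CPM in OPC-like nuclei, against 409 CPM in committed, 728 CPM in mature and 231 CPM in astrocyte-like nuclei. Of the 12 committed-stage genes 9 were called lower, but 4 of the 12 had been used to choose the committed class.

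Against mature oligodendrocyte-like nuclei OPC-like nuclei had 1418 of 11053 entered genes (12.8%) called higher and 1151 (10.4%) lower. Stk32a, Tafa4, Calcrl, Chst9, Rlbp1 and Lgr5 led the higher side, with log2 ratios from 6.64 to 7.41. Chst9, a carbohydrate sulfotransferase, was at 432 CPM in OPC-like nuclei, against 4.23 CPM in mature nuclei. Lgr5, a receptor for R-spondins, was at 84.4 CPM in OPC-like and 103 CPM in committed nuclei, against 0.845 CPM in mature nuclei. The lower side was led by Heg1, Galnt5, Neat1, Galnt6, Cyp2j12 and Sec14l5, with log2 ratios from -6.03 to -5.84.

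Against astrocyte-like nuclei OPC-like nuclei had 1370 of 11207 entered genes (12.2%) called higher and 1262 (11.3%) lower. Prkcq, Ebf1, Myt1, Nxph1, Prss48 and Lgr5 led the higher side. Myt1, a zinc finger factor of the lineage, was at 366 CPM in OPC-like nuclei and had 0 UMIs in astrocyte-like nuclei, which makes it at least 7.63 log2 units higher. Nxph1, the gene of the neurexin ligand neurexophilin, was at 2508 CPM in OPC-like nuclei, against 14.8 CPM in astrocyte-like nuclei; inhibitory neuron-like nuclei reached 2267 CPM. Gli3, Ranbp3l, Slco1c1, Ezr, Fam20a and Phkg1 led the lower side with log2 ratios from -7.92 to -7.28; each had between 1 and 6 UMIs in OPC-like nuclei. Aqp4, a marker used to choose astrocyte-like nuclei, was at 57.6 CPM in OPC-like nuclei and 63.7 CPM in committed nuclei, against 189 CPM in astrocyte-like nuclei, while Slc39a12 of the same list had 9 UMIs in OPC-like nuclei, against 792 UMIs in astrocyte-like nuclei.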

How the data were processed

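The 4 samples of medial prefrontal cortex nuclei were profiled with 10x Genomics 3' v3.1 chemistry, per the labels. The deposited matrix holds UMI counts of 32287 features in each barcode. The authors made them with Cell Ranger 7.1.0 on mm10, per the submitters' processing notes and the file headers; 2 of the features are transgenes. How barcodes were called is not given in the sources used here. Since no ending is tied to a sample, all libraries were taken as 1 sample and nothing was tested.

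The members of the set, the gene lists and the marker lists were chosen with earlier results of these data known. Each other nucleus took the type of the list of 4 markers with the highest score among lists with at least 2 genes detected. UMIs were summed per class. Ratios of CPM have exact conditional binomial 95% intervals, and shares exact (Clopper-Pearson) ones. A count of 0 was bounded at 3 UMIs per class.

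Named genes were the rule genes, at most 4 higher and 3 lower called genes per list, serotonin receptors with at least 10 UMIs, markers and reporter features. Outside the lists, genes with at least 100 UMIs were named: the 12 highest and 6 lowest ratios to all other nuclei and 6 on each side against each like class. Further genes complete small counts or, as with Lhfpl3, Ptprz1 and list genes compared with like classes, were chosen after their values were seen. Some genes that the rule names are not reported here.

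Doublets were kept. Scrublet in scanpy 1.11.5, run per library, scored 279 nuclei (2.10%) above 0.25. The rule for calling genes was checked on simulated counts. Alternatives changed the nucleus filters, the size of the set, depth, scaling, gene minimum and fold, or left out a library. Positions and overlaps came from GENCODE M21 and promoter windows from RefSeq (GRCm38.p6). Python 3.11.15, numpy 2.4.6, scipy 1.17.1, pandas 2.3.3 and matplotlib 3.10.9 were used.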

Additional observations from a re-analysis of the deposited data

Results flagged for a closer look

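Barcodes left out of every comparison also carried the rule genes. Of the 7341 barcodes removed by the mitochondrial limit alone, 72 held at least 2 of the 4 rule genes and reached the score of the last OPC-like nucleus, which is 0.981% of them (exact binomial 95% interval 0.768 to 1.23). Their median mitochondrial share was 6.44%, and 94.4% of them had a UMI of Lhfpl3. They numbered 11, 10, 6 and 45 in libraries 1 to 4.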

How the results depend on the processing

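No paired analysis was possible because barcode endings are not tied to samples and no test was made. With all nuclei limited to at most 1% mitochondrial UMIs the rule took all 64 eligible nuclei, of which 29 were among the 280 and the rest were below the lowest score of the 280, so the limit and the range of scores changed together. Then 366 genes were called higher and 100 lower than in all other nuclei. Under that limit 0.623%, 0.375%, 1.64% and 0% of kept nuclei in libraries 1 to 4, and 0.733% in all, belonged to the 280, since most of them exceed 1%. In those 64 nuclei the log2 ratios of Frmd4a (0.15), Egfr (1.83), Htr2c (0.33), Adamts17 (0.00877), Npas4 (0.31) and Neat1 (1.25) were above 0; Neat1 was also at 0.48 with the 400 highest scores, and Top2a at -0.14 without the nuclei with at least 2 genes of G2 and mitosis, which follows from how those nuclei were picked, Top2a being one of the genes. The other causes were not tested.

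Thinning to 800 UMIs, which leaves fewer genes entered, gave 476 genes higher and 541 lower than in all other nuclei, 735 and 627 than in mature oligodendrocyte-like, 539 and 409 than in committed precursor-like, and 663 and 577 than in astrocyte-like nuclei. The mean over nuclei in place of summed UMIs gave 1055 higher and 1213 lower, against 1490 and 1185, with the median log2 ratio of all entered genes at 0.09 in place of 0.22. A minimum of 50 UMIs gave 961 higher, and a 4-fold limit 582 higher and 504 lower. Leaving out 1 library at a time gave 1350 to 1420 genes higher and 1065 to 1121 lower than in all other nuclei, 1242 to 1411 and 1085 to 1166 than in mature, 1273 to 1495 and 780 to 837 than in committed, and 1300 to 1357 and 1200 to 1257 than in astrocyte-like nuclei. Of 1723 ratios of named genes under alternatives, 1282 stayed within counting error, 433 moved beyond it and 8 changed sign. Changes of sign were counted only for genes called in the main comparison. Leaving out nuclei with foreign markers or with genes of G2 and mitosis, and removing further nuclei of the rule genes from the comparison, were chosen after seeing the data. Without those further nuclei 1496 genes were called higher and 1189 lower. Genes with few UMIs in 280 shallow nuclei are limited by depth.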

Other observations

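Among growth factor and Notch genes, 4 of 23 entered were called higher and 10 lower in OPC-like than in astrocyte-like nuclei. The higher ones were the neuregulin receptors Erbb4 and Erbb3, the Notch ligand Dll1 and Tgfbr1. Erbb4 was at 3184 CPM in OPC-like nuclei, against 112 CPM in astrocyte-like nuclei, and Erbb3 was at 19.7 CPM in OPC-like nuclei and had 0 UMIs in astrocyte-like nuclei. On the lower side Fgfr3 was used to choose astrocyte-like nuclei. Bmpr1b stood at 15.8 CPM in OPC-like nuclei, against 572 CPM in astrocyte-like nuclei.

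Axon guidance genes were called higher than in astrocyte-like nuclei in 14 of 24 entered cases and lower in 3, which were Efna5, Ephb1 and Robo2. Efna5, an ephrin ligand, was at 17.4 CPM in OPC-like nuclei, against 196 CPM in astrocyte-like nuclei. Dcc, a netrin receptor, was at 2007 CPM in OPC-like nuclei, against 709.5 CPM in astrocyte-like and 536 CPM in mature oligodendrocyte-like nuclei. The genes of both paragraphs outside the naming rule were chosen after their values were seen.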
